A study of Homo sapiens with 26 samples.

Results

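Of the 10740 GR-bound regions of 400 bp in the authors' table, 3166 (29.5%) had their midpoint more than 100 kb from the start of every protein-coding gene in GENCODE 44, and these are called distal here. The other 7574 regions (70.5%) lay within 100 kb of such a start and served as the comparison. GR, the glucocorticoid receptor, was located by chromatin immunoprecipitation with sequencing in A549 cells, a long-established line from a human lung carcinoma. All cells of the 6 GR groups had been infected with an adenovirus, either Ad-GFP, which carries green fluorescent protein and is the control, or Ad-IκBαΔN, which carries an inhibitor of NF-κB. Within each virus the cells were left unstimulated, treated for 1 h with 300 nM budesonide (Bud), a synthetic glucocorticoid, or treated for 1 h with 300 nM budesonide and 1 ng/ml interleukin-1β (IL1B+Bud). Each group had 2 libraries, but the deposited table gave 1 value per region and group, so no difference between groups could be set against replicate error and every fold is descriptive. These values report binding and not expression, so the identity of the cells could not be checked from marker genes.

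GR is a ligand-activated transcription factor that, once bound by a glucocorticoid, enters the nucleus and binds glucocorticoid response elements (GREs), which are imperfect palindromes. NF-κB, whose subunit RELA is activated by interleukin-1β, binds κB sites at inflammatory genes, and IκBα holds it in the cytoplasm. Much binding of both factors lies at enhancers, which can be far from the gene they act on, and the nearest gene start is therefore only a label for a distal region and not an assigned target.

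The sequences that the results turn on are shown first, as the central 201 bases of 9 distal regions on the plus strand of hg38. In the first 5 the capitals mark matches to the κB motif, and in the first of them also a match to the GRE. These regions had low GR signal with budesonide alone and high signal with IL1B+Bud in Ad-GFP cells.
Upstream of TNFAIP3, chr6:137707673-137707873: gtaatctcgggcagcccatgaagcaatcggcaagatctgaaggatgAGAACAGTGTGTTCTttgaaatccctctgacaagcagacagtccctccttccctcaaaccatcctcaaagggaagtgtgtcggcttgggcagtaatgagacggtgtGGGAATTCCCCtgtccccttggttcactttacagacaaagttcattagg
Intron of MAST4, chr5:66891676-66891876: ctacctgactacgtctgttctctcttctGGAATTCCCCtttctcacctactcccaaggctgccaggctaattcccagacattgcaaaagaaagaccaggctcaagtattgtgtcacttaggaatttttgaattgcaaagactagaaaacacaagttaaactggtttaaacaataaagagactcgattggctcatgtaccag
Intron of DOCK4, chr7:112056495-112056695: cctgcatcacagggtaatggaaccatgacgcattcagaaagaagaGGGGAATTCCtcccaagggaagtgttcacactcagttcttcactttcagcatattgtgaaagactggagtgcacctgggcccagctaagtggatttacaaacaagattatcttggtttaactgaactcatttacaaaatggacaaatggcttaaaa
Intron of ABTB2, chr11:34234271-34234471: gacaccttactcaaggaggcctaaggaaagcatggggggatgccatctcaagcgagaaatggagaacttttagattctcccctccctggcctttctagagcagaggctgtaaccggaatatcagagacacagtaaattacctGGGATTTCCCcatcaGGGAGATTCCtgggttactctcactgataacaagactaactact
Downstream of the BMP7 start, chr20:57006918-57007118: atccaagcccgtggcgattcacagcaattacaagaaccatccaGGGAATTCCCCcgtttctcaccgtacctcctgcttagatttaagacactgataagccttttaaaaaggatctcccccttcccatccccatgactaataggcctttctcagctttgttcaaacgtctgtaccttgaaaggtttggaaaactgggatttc

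In the next 4 sequences the capitals mark the best match to the GRE consensus, which is AGAACA and TGTTCT with any 3 bases between them, with at most 2 mismatches over its 12 fixed bases. The first is a region of high signal with budesonide, the next 2 had higher signal in Ad-IκBαΔN than in Ad-GFP cells under IL1B+Bud, and the last had lower signal in Ad-GFP cells under IL1B+Bud than under budesonide alone.
Nearest to JAG1, chr20:10861588-10861788: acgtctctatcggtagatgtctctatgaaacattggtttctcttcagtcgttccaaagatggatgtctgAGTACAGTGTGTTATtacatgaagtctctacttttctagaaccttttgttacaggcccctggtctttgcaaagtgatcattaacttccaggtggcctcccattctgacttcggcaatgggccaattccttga
Intron of ME3, chr11:86547874-86548074: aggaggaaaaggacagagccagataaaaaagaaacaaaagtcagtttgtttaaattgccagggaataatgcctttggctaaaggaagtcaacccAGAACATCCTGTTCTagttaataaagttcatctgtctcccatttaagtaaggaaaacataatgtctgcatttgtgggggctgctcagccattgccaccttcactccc
Upstream of GJE1, chr6:141403973-141404173: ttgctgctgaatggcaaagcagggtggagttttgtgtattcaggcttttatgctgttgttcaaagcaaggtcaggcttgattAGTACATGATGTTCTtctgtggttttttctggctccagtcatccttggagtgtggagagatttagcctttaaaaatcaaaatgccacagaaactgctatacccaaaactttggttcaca
Upstream of SLC7A11, chr4:138507576-138507776: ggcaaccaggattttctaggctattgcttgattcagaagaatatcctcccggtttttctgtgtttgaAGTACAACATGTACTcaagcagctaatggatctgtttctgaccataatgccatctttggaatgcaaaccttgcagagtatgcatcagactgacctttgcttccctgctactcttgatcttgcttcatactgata

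The distal regions had a median distance of 189 kb from the nearest protein-coding start, with quartiles of 133 and 310 kb and a maximum of 5.44 Mb. Being far from a start did not mean being outside genes. A protein-coding gene body contained 1411 of them (44.6%), spread over 588 genes, and introns of protein-coding genes held 42.5% by midpoint against 49.0% of the other regions. Introns of lncRNA genes, which make long RNAs without a protein product, held 21.0% of distal regions against 9.49% of the others. When starts of every annotated gene were allowed, the nearest start belonged to a lncRNA for 52.3% of distal and 30.3% of other regions, and 455 distal regions remained beyond 100 kb of any start. Base composition differed too, with a median GC content of 42.2% in distal and 45.8% in other regions.

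The rule at 100 kb divided a continuous range. The 3 regions just inside it had as nearest starts KCTD1 (100.001 kb), ARF6 (100.026 kb) and PDP1 (100.110 kb), with signals in Ad-GFP cells under budesonide of 27.4, 36.7 and 26.4. The 3 just outside had AQP4 (99.999 kb), PKD2 (99.974 kb) and SLCO3A1 (99.959 kb), with signals of 24.1, 33.0 and 3.70.

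**Figure D1:**
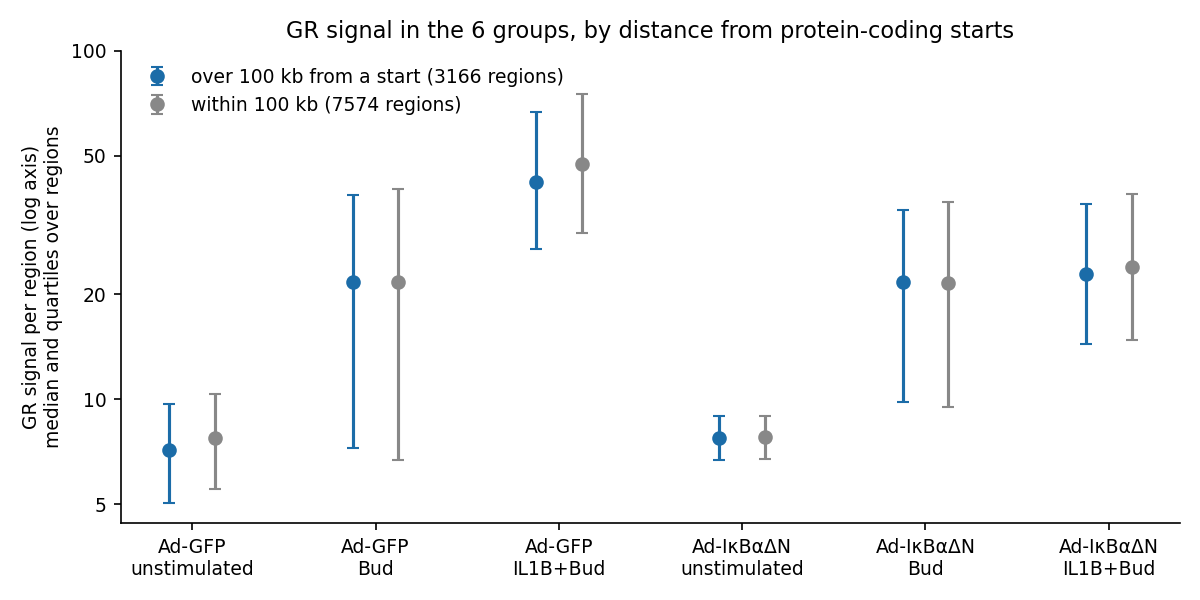
GR signal (log axis) in the 6 groups for the 3166 distal regions and the 7574 other regions. Points are medians and bars span the quartiles over regions, not replicates. The quartile ranges of the 2 sets overlap in each group, and in Ad-GFP cells with IL1B+Bud the distal median of 42.0 lies under the 47.4 of the other regions.

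GR signal is given as 2 raised to the authors' log2 value, minus 1. Unstimulated cells had a median distal signal of 7.17 (Ad-GFP) and 7.76 (Ad-IκBαΔN), and no distal region exceeded 29.1 in Ad-GFP. With budesonide the median was 21.7 in both viruses. With IL1B+Bud it was 42.0 for Ad-GFP against 22.9 for Ad-IκBαΔN. The plot of signal by group shows that the quartile ranges of distal and other regions overlapped in all 6 groups. The highest distal signals, 410 with budesonide and 556 with IL1B+Bud in Ad-GFP, were below the maxima of 1492 and 1520 reached among the other regions.

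With budesonide the GR signal at distal sites stood above the unstimulated one about as often as elsewhere. A difference of at least 2-fold separated the budesonide and unstimulated Ad-GFP groups upward at 1907 distal regions and downward at 230, where the background over all 10740 regions was 57.9% higher and 8.14% lower. The median log2 difference was 1.46 at distal and 1.33 at other regions. With Ad-IκBαΔN the distal counts were 1922 upward and 49 downward, the background 59.3% and 1.06%, and the medians 1.36 and 1.37. Shares of 60.2% and 60.7% higher are thus near the background in both viruses. These counts rest on the scale of the deposited values: after every group was re-centred to a common median, 782 distal regions were higher and 935 lower with Ad-GFP. With Ad-IκBαΔN the re-centred counts were 568 and 843.

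The region with the highest budesonide difference in Ad-GFP lay 185 kb from the start of MSN, which encodes the membrane-cytoskeleton linker moesin. Its signal was 4.89 unstimulated, 378 with Bud and 179 with IL1B+Bud for Ad-GFP. In the same order it was 6.48, 292 and 254 for Ad-IκBαΔN. It was low in both unstimulated groups and high in the other 4. An intronic region of CCNY, a cyclin gene, had 3.94, 283 and 180 with Ad-GFP and 6.11, 225 and 156 with Ad-IκBαΔN. A region 128 kb upstream of SLC45A1, a sugar transporter gene, had 2.92, 212 and 149, then 7.02, 167 and 121. Both were low unstimulated and high in the other 4 groups, and neither held a GRE match with at most 2 mismatches.

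With IL1B added to budesonide in Ad-GFP cells, many distal regions carried more GR signal and most of the rest stayed within 2-fold of their budesonide level. At least 2-fold higher signal was seen at 1454 distal regions and at least 2-fold lower signal at 191, where the background over all regions was 48.9% higher and 6.07% lower. The shares of 45.9% and 6.03% were close to it. The median log2 difference was 0.76 at distal regions and 1.01 at others, a gap of -0.25. By the authors' own classes, 1158 distal regions (36.6%) were increasing, 1017 (32.1%) unchanged and 991 (31.3%) decreasing. The increasing share of the other regions was 42.1% and the decreasing share 26.3%. The sources used here do not say how these classes were set, so they may rest on these same signals.

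The split between higher and lower moved with the scale. The signals in Ad-GFP cells with IL1B+Bud fell on steps 3 times those of the budesonide group, and dividing by the steps gave 852 distal regions higher and 1441 lower. Re-centring gave 1073 and 1087. The gap between the distal and the other median was -0.25 in each of these versions. Re-centring shifts all regions alike and cannot change this gap, and division by the steps shifts them nearly alike. Quantile normalization, which can change it, gave medians of -0.24 at distal and -0.065 at other regions.

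In Ad-IκBαΔN cells the same addition of IL1B gave 283 distal regions at least 2-fold higher and 32 lower, beside a background of 9.65% and 0.94%. The median log2 difference was 0.22 at distal and 0.28 at other regions. Division by the steps turned this split to 29 against 354, and re-centring to 170 against 54. Of the 1454 distal regions that passed 2-fold upward with Ad-GFP, 251 (17.3%) also did so with Ad-IκBαΔN, and the corresponding share of the other regions was 16.8%. Their median signal went from 6.58 with Bud to 56.4 with IL1B+Bud in Ad-GFP and from 9.13 to 14.3 in Ad-IκBαΔN. The Ad-GFP rise restates how these regions were chosen. A smaller change in Ad-IκBαΔN can follow in part from choosing on the other virus. Across the 3166 distal regions the IL1B differences of the viruses had a Pearson r of 0.54 (0.52 over the 7574 other regions), and the budesonide differences had 0.88. Each of these relations joins values from 4 separate groups measured at the same regions, and no test was made on regions.

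Set directly against each other, the viruses were alike under budesonide alone and unlike under IL1B+Bud. Under budesonide the Ad-IκBαΔN signal was at least 2-fold above the Ad-GFP one at 117 distal regions and below it at 1, beside a background of 4.02% and 0.0186%. Quantile normalization gave counts of 1 and 4. Under IL1B+Bud 176 were higher and 1406 lower in Ad-IκBαΔN, beside a background of 5.97% and 46.5%, with a median of -0.79 at distal and -0.88 at other regions. After re-centring, 822 were higher and 693 lower, and after division by the steps 827 and 642. Distal regions stood on both sides in these 3 scalings, while the balance between the sides did not hold.

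**Figure D2:**
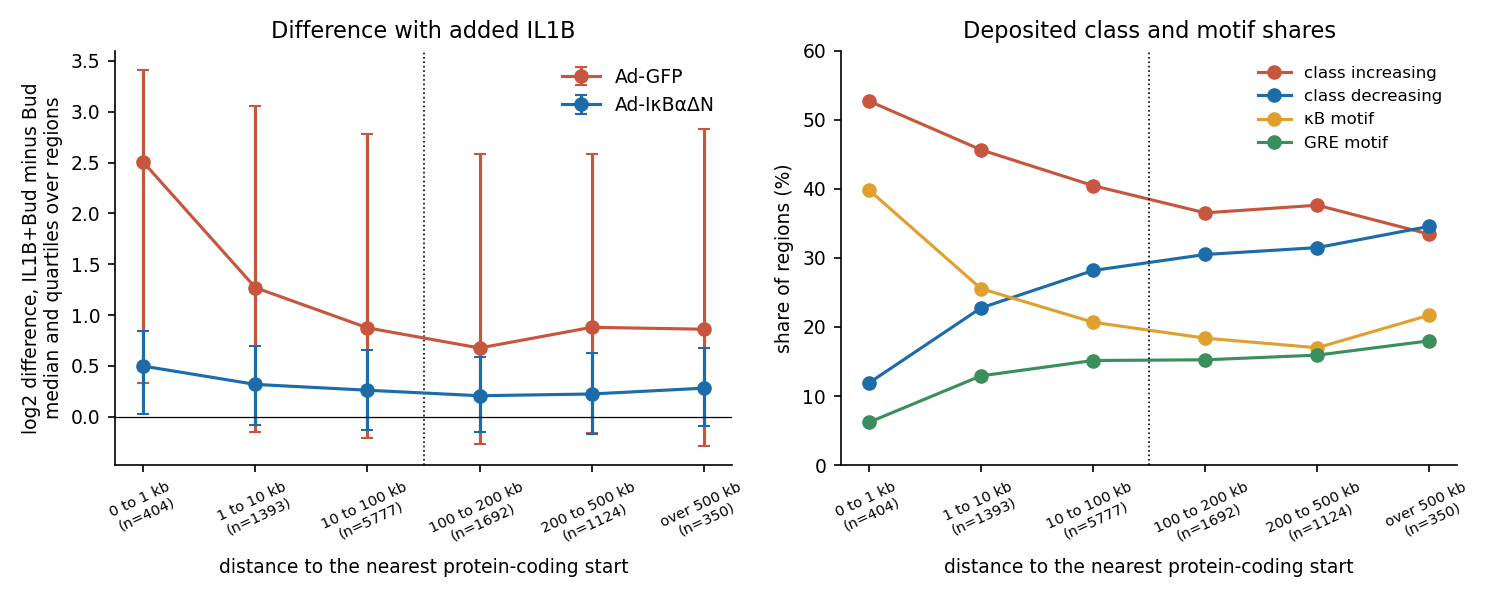
Left, log2 difference between IL1B+Bud and Bud by distance to the nearest protein-coding start, as the median and quartiles over the regions of each band, in Ad-GFP and Ad-IκBαΔN cells. Right, share of each band in the authors' increasing and decreasing classes and with a κB or GRE motif. The dotted line marks 100 kb. The Ad-GFP median drops from 2.50 within 1 kb to 0.68 at 100 to 200 kb and is 0.86 beyond 500 kb.

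By distance, the IL1B difference in Ad-GFP was highest at gene starts and level among the distal bands. Its median was 2.50 within 1 kb of a start, 1.27 from 1 to 10 kb and 0.87 from 10 to 100 kb. Among distal regions it was 0.68 from 100 to 200 kb, 0.88 from 200 to 500 kb and 0.86 beyond 500 kb. The share of regions in the increasing class went from 52.7% within 1 kb to 36.5%, 37.6% and 33.4% in the 3 distal bands, and the decreasing share from 11.9% to 30.5%, 31.5% and 34.6%. GC content was 57.0% in the first band and 40.8% in the last, and its part in these shares was not tested. With the limit at 200 kb in place of 100 kb the gap was -0.057.

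Motif content was compared between distal and other regions, and then between distal regions of different response. A GRE (at most 2 mismatches) was present in 500 distal regions, or 15.8%, against 14.3% of other regions, 14.7% of all regions and 3.35% of windows of the same length 5 kb from distal regions. The κB motif was present in 578, or 18.3%, against 22.6% of other regions, 21.3% of all and 2.87% of the windows. Matches were central: the median distance from the midpoint of distal regions was 17.5 bp for the GRE and 28.5 bp for κB. In the other regions it was 16.5 bp for the GRE and 23 bp for κB. An AP-1 site (TGACTCA or TGAGTCA) was in 23.0% of distal and 22.7% of other regions (6.57% of windows). The C/EBP half-site pair TTGCNNAA was in 32.6% and 27.9% (21.9% of windows), the FOX motif TGTTTAC in 14.9% and 12.4% (6.51%), and the TEAD motif GGAATG in 29.2% and 27.6% (20.6%). All were searched on both strands, overlaps between motifs were not removed, and a match describes letters only.

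By class the motifs split further. A κB motif was found in 38.6% of distal regions of the increasing class, 9.44% of the unchanged and 3.53% of the decreasing class, and a GRE in 6.82%, 20.9% and 21.0%. The windows 5 kb away held κB at 3.45%, 2.46% and 2.62%, so the κB share of the decreasing class was close to its surroundings. Only 32 distal regions held both motifs, and 2120 held neither.

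The 546 distal regions with κB and no GRE had a median signal of 7.17 unstimulated, 5.26 with Bud and 56.3 with IL1B+Bud in Ad-GFP. Their medians in Ad-IκBαΔN were 7.70, 7.70 and 12.7. Of them 518 were at least 2-fold higher with IL1B+Bud than with Bud with Ad-GFP (background 48.9%) and 108 with Ad-IκBαΔN (background 9.65%). Their medians were low in the other groups, so many may be in the authors' table only through Ad-GFP with IL1B+Bud. Contrasts with that group may then be set in part by selection, which was not tested. The 468 with a GRE and no κB had 6.78, 29.9 and 30.2 with Ad-GFP and 7.64, 28.3 and 33.5 with Ad-IκBαΔN. Of these, 58 were higher and 69 lower with added IL1B in Ad-GFP, or 12.4% and 14.7%, where the background was 48.9% and 6.07%. For all 500 regions with a GRE, the median IL1B difference with Ad-GFP was -0.15 as deposited and -1.63 in the lowest scaling. For all 578 regions with κB, the median IL1B difference was 3.08 with Ad-GFP as deposited and at least 1.16 in every scaling tried, and 0.58 and at least 0.05 with Ad-IκBαΔN.

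**Figure D3:**
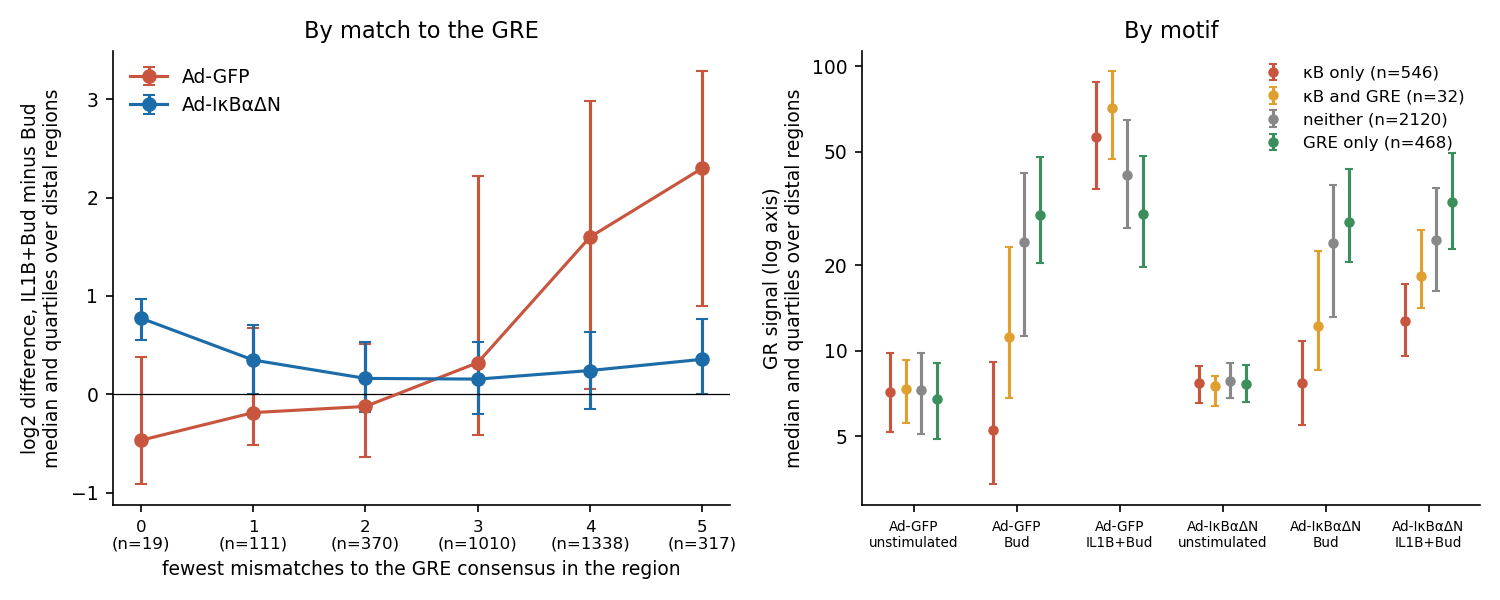
Left, log2 difference between IL1B+Bud and Bud against the fewest mismatches to the GRE consensus found in a distal region, as medians and quartiles over regions; 1 region with 6 mismatches is not drawn, and the bin of 0 mismatches holds 19 regions. Right, GR signal (log axis) of distal regions with a κB motif only, both motifs, neither, or a GRE only. In Ad-GFP the median difference is -0.47 at 0 mismatches and 2.30 at 5, and in Ad-IκBαΔN it is 0.77 at 0 and 0.36 at 5, the last below 0 in 1 or more scalings.

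With Ad-GFP the IL1B difference was lower the closer the best GRE match. From 0 to 5 mismatches its median was -0.47, -0.19, -0.12, 0.32, 1.60 and 2.30. Across scalings the median at 3 mismatches changed sign, ranging from -1.19 to 0.32, and at 4 mismatches it ranged from 0.07 to 1.60. With Ad-IκBαΔN the medians were 0.77, 0.35, 0.16, 0.15, 0.24 and 0.36. Other than at 0 mismatches, each of these was below 0 in at least 1 scaling. The first of these bins holds only 19 regions, and without it the Ad-IκBαΔN medians of the other 5 lie between 0.15 and 0.36. Under IL1B+Bud, 86 of the 176 distal regions with at least 2-fold more signal in Ad-IκBαΔN held a GRE (48.9%), and 32 (18.2%) held one with at most 1 mismatch. Among the 1406 with at least 2-fold less signal the shares were 4.62% and 1.21%. None of the 176 held a κB motif, against 36.7% of the 1406. Regions that are in the authors' table only through Ad-GFP with IL1B+Bud would be unlikely among the 176. Selection may thus set part of these shares, and of the Ad-GFP medians by mismatch, which was not tested. Other regions showed similar shares, with a GRE in 43.2% of the higher and 5.26% of the lower ones.

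**Figure D4:**
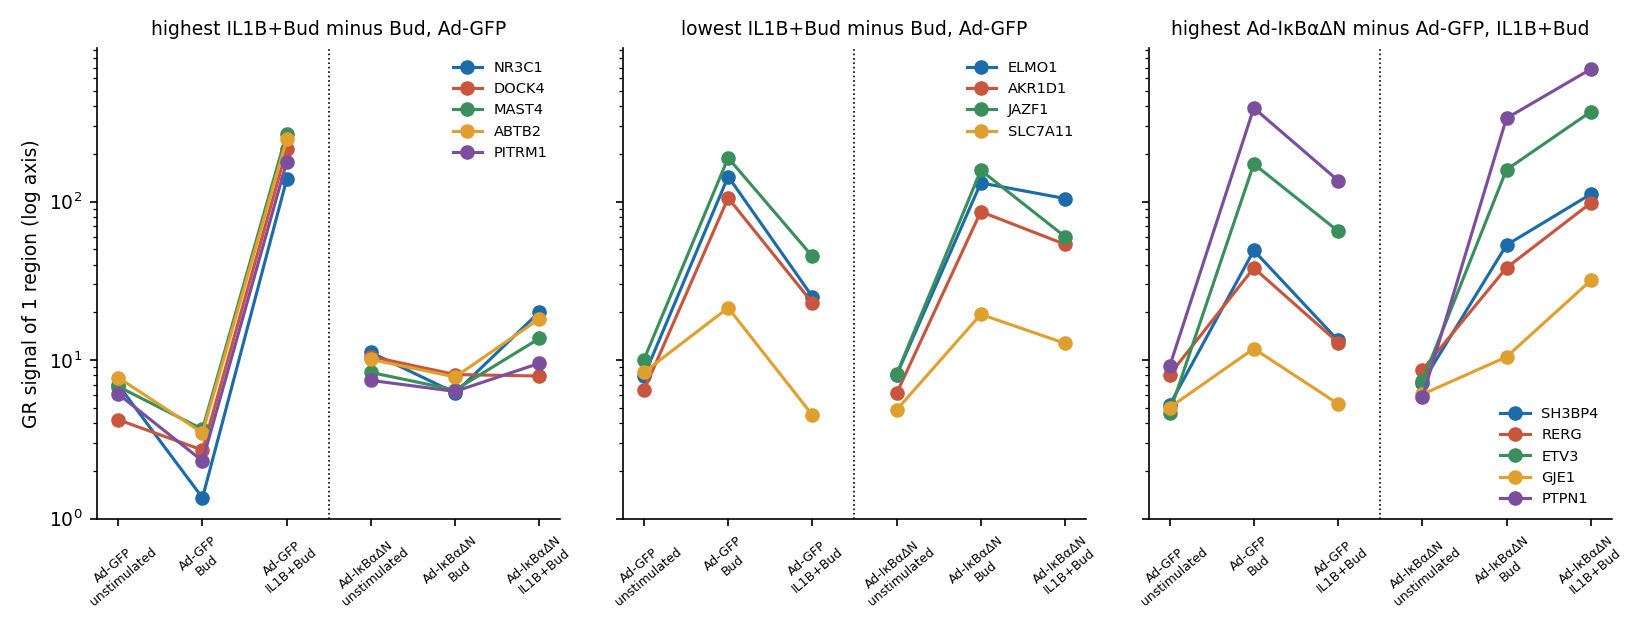
GR signal (log axis) of single distal regions in the 6 groups, each line being 1 region with 1 value per group. Left, the 5 with the highest difference between IL1B+Bud and Bud in Ad-GFP; middle, 4 of the 5 with the lowest; right, the 5 with the highest signal in Ad-IκBαΔN over Ad-GFP under IL1B+Bud. The left regions are between 138 and 269 in Ad-GFP with IL1B+Bud and at most 20.1 in Ad-IκBαΔN.

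The largest IL1B difference in Ad-GFP was at a region 141 kb upstream of NR3C1, the gene of GR itself, in an intron of a lncRNA gene. Its signal was 6.97 unstimulated, 1.35 with Bud and 138 with IL1B+Bud for Ad-GFP, then 11.2, 6.21 and 20.1 for Ad-IκBαΔN. It held neither a κB motif nor a GRE with at most 2 mismatches, and was also among the 5 highest IL1B differences in Ad-IκBαΔN. It was high in 1 group and low in the other 5.

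The DOCK4 region, in the gene of a guanine nucleotide exchange factor, had 4.21, 2.71 and 214 with Ad-GFP and 10.5, 8.11 and 7.94 with Ad-IκBαΔN. The MAST4 region, in a kinase gene, had 6.81, 3.66 and 269, then 8.36, 6.48 and 13.7. ABTB2 had 7.75, 3.48 and 247, then 10.1, 7.83 and 18.2. Each of these 3, whose κB matches are shown above, was high in Ad-GFP cells with IL1B+Bud alone of the 6 groups. The region 201 kb from PITRM1, a mitochondrial peptidase gene, had the same form without a κB motif, at 178 against 2.31 with Bud. Across the scalings tried, the differences of these 5 regions were at least 3.29.

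The region downstream of the BMP7 start, where BMP7 encodes a bone morphogenetic protein, had 9.46, 5.41 and 244 with Ad-GFP and 8.57, 6.71 and 8.58 with Ad-IκBαΔN. CRIM1, which encodes a membrane protein that binds bone morphogenetic proteins, held an intronic region with 9.92, 10.1 and 408, then 7.26, 13.1 and 18.5. A region 128 kb from ITGB8, an integrin subunit gene, had 15.1, 13.1 and 345, then 8.44, 16.3 and 11.1. These 3 were among the 5 distal regions with the lowest signal in Ad-IκBαΔN relative to Ad-GFP under IL1B+Bud, at log2 differences of -4.68, -4.39 and -4.84.

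The 191 distal regions at least 2-fold lower under IL1B+Bud than under Bud in Ad-GFP went from a median signal of 50.3 to 19.4 there, and from 45.8 to 40.7 in Ad-IκBαΔN. Here too the Ad-GFP fall restates the choice of regions, and a smaller change in Ad-IκBαΔN can follow from it in part. An intronic region of ELMO1, a regulator of phagocytosis and migration, had 7.90, 144 and 25.1 with Ad-GFP and 8.06, 131 and 105 with Ad-IκBαΔN. A region 192 kb from AKR1D1, a steroid reductase gene, had 6.45, 105 and 23.0, then 6.17, 86.4 and 53.7. In JAZF1, a zinc finger gene, the intronic region had 10.1, 189 and 45.2, then 8.16, 158 and 60.1. The SLC7A11 region, near the cystine transporter gene and with the GRE shown above, had 8.37, 21.4 and 4.50, then 4.85, 19.4 and 12.8. With IL1B+Bud the Ad-IκBαΔN signal exceeded the Ad-GFP one at these 4, by 0.40 log2 at JAZF1 and 2.02 at ELMO1. Of the 191 regions, 36.1% held a GRE, against 14.7% of all regions. Among the 461 other regions at least 2-fold lower in the same comparison the share was 31.2%.

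At a further group of regions the signal with IL1B+Bud was higher in Ad-IκBαΔN than with budesonide alone. A region 115 kb upstream of PTPN1, a tyrosine phosphatase gene, had 9.12, 390 and 136 with Ad-GFP and 5.81, 336 and 685 with Ad-IκBαΔN. The last value is the highest of any distal region in any group. A region near ETV3, an ETS-family repressor gene, had 4.66, 173 and 65.2, then 7.33, 159 and 369. SH3BP4 had 5.19, 49.2 and 13.3, then 7.21, 53.2 and 111. The GJE1 region, whose GRE has 1 mismatch, had 5.02, 11.8 and 5.29, then 6.08, 10.5 and 31.8. In each of these 4 regions IL1B+Bud lay below Bud in Ad-GFP and above it in Ad-IκBαΔN, also after division by the steps.

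Of the 5 distal regions with the highest signal under IL1B+Bud in Ad-GFP, 4 already had signals of 98.9 or more under budesonide, the exception being the CRIM1 region. The region near PAPPA, which encodes a metalloproteinase, had 410 with Bud with Ad-GFP and 340 with Ad-IκBαΔN. RBFOX3 held an intronic region with 393 and 297, and 556 with IL1B+Bud in Ad-GFP, the highest of that group. Near CEBPB, which encodes a C/EBP transcription factor known to be induced by glucocorticoids, an exonic lncRNA region had 9.80, 185 and 524 with Ad-GFP and 10.5, 137 and 108 with Ad-IκBαΔN. Its difference between IL1B+Bud and Bud was above 0 in Ad-GFP as deposited, and -0.08 in another scaling.

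Members of 6 gene lists were looked up by nearest start or by the protein-coding gene that held the region, and a list of 17 marker genes of other cell types had no distal region. Of 40 glucocorticoid-induced genes, 11 had distal regions, 40 in number. With budesonide 33 of them passed 2-fold upward and 0 downward in Ad-GFP (background 57.9% and 8.14%, and 7 each way in the scalings at the other extreme), with a median of 2.23 where all regions had 1.37. With added IL1B 13 were higher and 6 lower (background 48.9% and 6.07%, and 4 and 24 in the scalings at the other extreme). Their median was 0.22 where all regions had 0.92, and 14 of 40 lay above the median of all regions. SGK1, a kinase gene, had 7 such regions, 2 of them within the gene and the farthest 313 kb upstream, and FOXO1, a forkhead factor gene, had 6 up to 491 kb away. One of the FOXO1 regions, 162 kb away, had 6.89, 12.1 and 205 with Ad-GFP and 5.72, 9.64 and 11.3 with Ad-IκBαΔN, while another, 430 kb away, had 2.30, 118 and 70.2, then 7.95, 93.2 and 90.2. Regions labelled with the same gene could thus follow either pattern.

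Of 37 NF-κB-dependent inflammatory genes, 3 had 4 regions in all, and all 4 were at least 2-fold higher with IL1B+Bud than with Bud in Ad-GFP (background 48.9%). The region 102 kb from PTGS2, the gene of cyclooxygenase-2, had 14.8, 13.3 and 246 with Ad-GFP and 10.6, 14.6 and 13.5 with Ad-IκBαΔN. The region 148 kb upstream of IL6, the interleukin-6 gene, had 7.39, 4.03 and 63.8, then 5.28, 6.54 and 14.2. The regions nearest to BMP2, another bone morphogenetic protein gene, reached 78.9 and 63.2 with IL1B+Bud in Ad-GFP. All 4 differences stayed above 0 in each scaling tried, and 2 of them at or above 1 in the least favourable one.

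Among 18 genes known as targets of both pathways, TNFAIP3, which encodes the NF-κB inhibitor A20, was alone in having distal regions. All 7 lay within LINC03004, 129 to 178 kb upstream of TNFAIP3, and all 7 were of the increasing class. That class, which may rest on these same signals, took in 36.6% of distal and 42.1% of other regions. The 7 are neighbours in 1 run of 48.8 kb, so they are not 7 independent observations. With Bud in Ad-GFP their signals ran from 1.75 to 13.4, and with IL1B+Bud from 43.2 to 145. In Ad-IκBαΔN with IL1B+Bud they ran from 7.28 to 20.2. A wide separation was usual for this class. Over all 1158 distal regions of the increasing class the median was 60.3 in Ad-GFP with IL1B+Bud and at most 14.1 in the other groups. The highest of the 7 Ad-GFP values with IL1B+Bud, 145, was at the region shown above. That region holds a perfect GRE and a κB palindrome and had only 5.74 with Bud. The median difference of the 7 regions was 3.45 in Ad-GFP, where all regions had 0.92, and 1.15 in Ad-IκBαΔN, where all had 0.26.

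Genes of AP-1 and other immediate early factors gave 46 distal regions of 5 genes, 27 of them nearest to MYC. With added IL1B in Ad-GFP 19 were higher and 1 lower (background 48.9% and 6.07%, and 8 and 19 at the other extreme of the scalings). Of the 46 regions, 20 lay above the median of all regions. The lung epithelial list had 38 regions of 7 genes, with 22 higher and 1 lower beside the same background (10 and 15 at the other extreme). Of the 38 regions, 22 lay above the median of all. Near FOXA2, an endoderm transcription factor gene, a region 114 kb away had 14.1, 28.7 and 399 with Ad-GFP and 7.94, 29.6 and 33.5 with Ad-IκBαΔN. Housekeeping genes had 1 distal region, near YWHAZ, at 11.9, 20.6 and 61.9, then 10.2, 24.1 and 51.4.

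**Figure D5:**
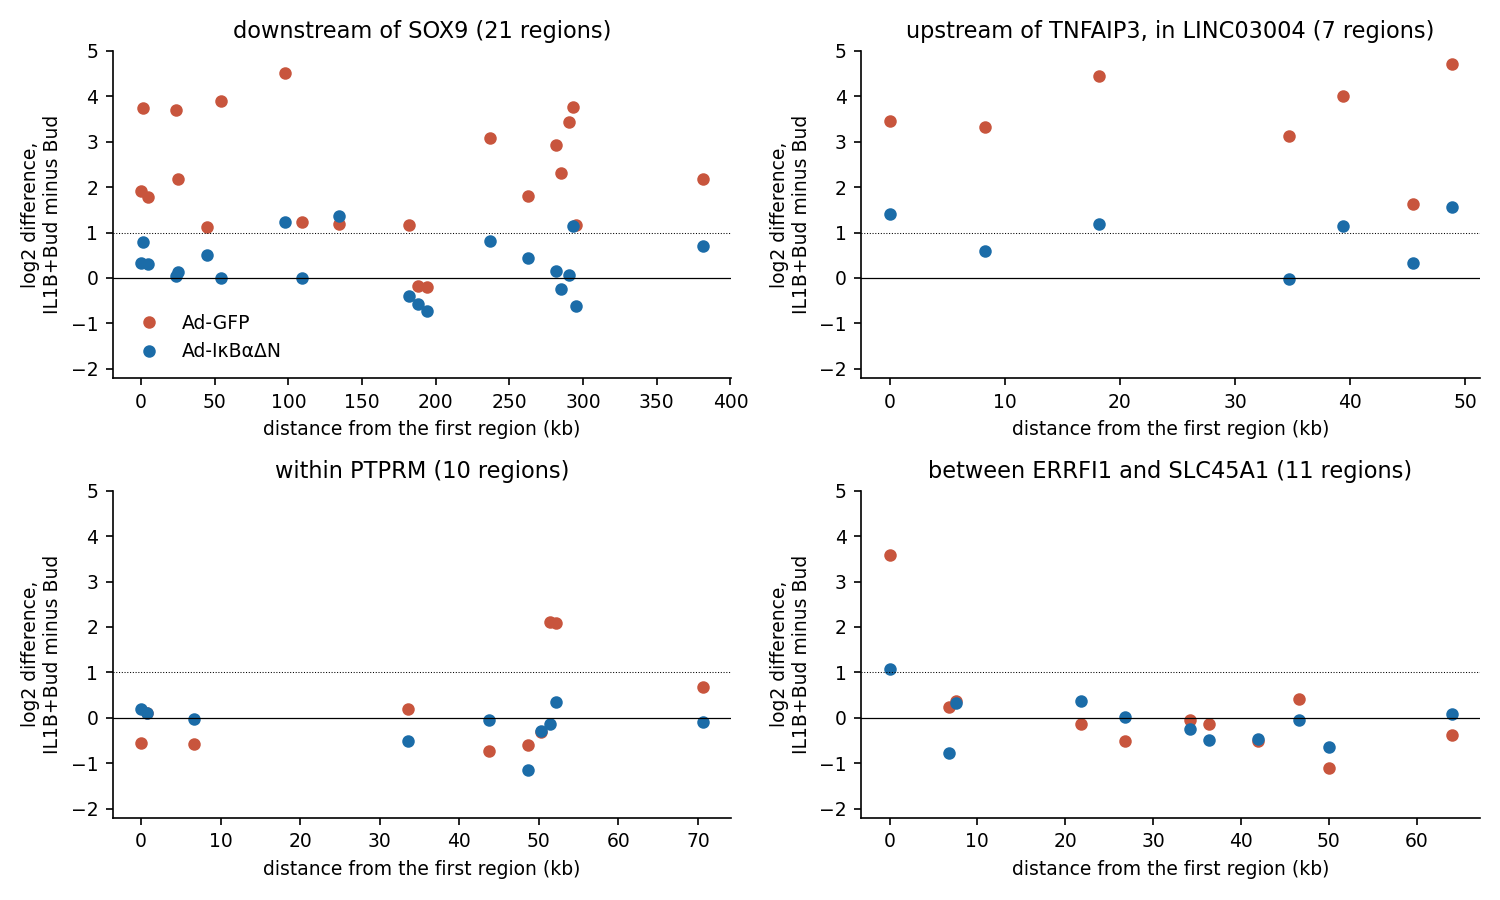
Log2 difference between IL1B+Bud and Bud at each region of 4 runs of distal regions, against distance from the first region of the run in kb. Each point is 1 region with 1 value per group; the dotted line marks a 2-fold difference. Downstream of SOX9 19 of 21 regions, and upstream of TNFAIP3 7 of 7, lie above it in Ad-GFP, against 2 of 10 within PTPRM and 1 of 11 between ERRFI1 and SLC45A1. Over all 10740 regions the share at least 2-fold higher in Ad-GFP is 48.9%. The 4 runs were chosen for display after their values were seen, so setting their counts beside this share tests nothing.

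Distal regions were often grouped, but not more so than the others. Another region of the table lay within 10 kb of 31.9% of distal and 35.8% of other regions. The median distance to the nearest region was 25.6 kb for distal and 21.65 kb for other regions. Joined at gaps of at most 100 kb, the distal regions formed 1618 runs. Of these, 970 were single regions and 110 had 5 or more, holding 816 regions. Neighbouring distal regions at most 10 kb apart were of the same class in 287 of 575 pairs (49.9%) and of opposite classes in 8.17%. At over 100 kb these shares were 34.7% and 22.0%. The Pearson r of their IL1B differences in Ad-GFP was 0.45 over the 575 near pairs, 0.21 over 973 pairs at 10 to 100 kb and 0.0075 over 1594 pairs farther apart, all measured in the same libraries.

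The run with most regions had 24 over 485 kb downstream of MYC, the proto-oncogene, 20 of them in the lncRNA gene PVT1. Its classes were mixed, with 9 increasing, 9 unchanged and 6 decreasing. Over all distal regions the shares of these classes were 36.6%, 32.1% and 31.3%. The next run, downstream of SOX9, a developmental transcription factor gene, had 21 regions over 382 kb. Of these, 13 lay in LINC00511 and 8 in the protein-coding gene SLC39A11, and 17 were increasing, 3 unchanged and 1 decreasing. In Ad-GFP with added IL1B 19 of these 21 were at least 2-fold higher (background 48.9%, and 8 in the scaling with fewest), and 19 lay above the median of all regions. In Ad-IκBαΔN 3 were (background 9.65%), and 10 lay above that median. One LINC00511 region had 11.8, 8.07 and 206 with Ad-GFP and 7.51, 10.9 and 26.9 with Ad-IκBαΔN.

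Long genes also differed from one another. PDE4D, a cAMP phosphodiesterase gene, held 36 distal regions, the most of any gene. Of these, 8 were increasing, 16 unchanged and 12 decreasing, where the shares over all distal regions were 36.6%, 32.1% and 31.3%. PDE4B, a related gene, held 12, of which 10 were at least 2-fold higher with added IL1B in Ad-GFP (background 48.9%, and 4 in the scaling with fewest). GLIS3, a zinc finger gene, held 14 with a median difference of 2.31, and 10 above the median of all regions. PTPRM, a receptor phosphatase gene, held 17 with a median of -0.30, and 3 above that median. One of the PTPRM regions had 0.41, 58.1 and 17.2 with Ad-GFP and 6.91, 54.0 and 22.0 with Ad-IκBαΔN. The compact run of 11 regions over 64.0 kb between ERRFI1, a glucocorticoid-induced feedback inhibitor of growth factor receptors, and SLC45A1 had median signals of 56.0 (Bud) and 50.8 (IL1B+Bud) for Ad-GFP, against 54.0 and 52.1 for Ad-IκBαΔN.

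The regions farthest from any protein-coding start were partly copies of sequence elsewhere. Of the 69 distal regions beyond 1 Mb, 14 shared at least 50% of their 31-base words with another region of the table. The 5 farthest, at 4.50 to 5.44 Mb from TPTE, lay on chromosome 21. Altogether 10 regions there had a copy elsewhere on the same chromosome that was not distal, and 7 of the 10 had as nearest annotated gene one that GENCODE marks as an artifact. The copies lay near GATD3, H2BC12L, CRYAA and SIK1, the last a salt-inducible kinase gene whose start was 14.0 kb from 1 copy. The distal member of that pair had 1.48, 88.6 and 109 in Ad-GFP, and its copy 4.37, 91.8 and 101. The region farthest of all had 2.34, 0.72 and 84.8, and its copy near GATD3 had 5.39, 0.14 and 90.4.

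How reads were assigned within such pairs was not tested, and the distance of these regions from a start is uncertain. In the whole distal set 67 regions (2.12%) had such a copy, and 27 of those copies were not distal. Chromosome 9 held 22 of the 67. Beyond 1 Mb, the median IL1B difference in Ad-GFP was 1.65 for the 14 regions with a copy and 2.21 for the 55 without, and 34 of the 55 were at least 2-fold higher (background 48.9%).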

How the data were processed

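GR, RELA and input libraries were made from A549 cells, 26 in all. The 12 GR libraries, 2 in each of 6 groups, underlie the values used; those for RELA and input are not used here. Per the submitters' processing notes, the tools were DiffBind 3.2, MACS2 2.2.7.1, SAMtools, Bowtie2 2.4.4, FastQC 0.10.1 and bcl2fastq, with the build hg38. The authors deposited a log2 intensity, 1 per region and group. The sources used here do not say how libraries were combined or scaled, and depth is unknown. The numbers fit log2(signal + 1) of a mean coverage over 400 bp: signal times 400 fell on whole multiples (within 0.0001 of a step) of 1 in both Bud groups and at 99.99% of regions in Ad-GFP unstimulated, of 3 in Ad-GFP IL1B+Bud and of 1.5 in Ad-IκBαΔN IL1B+Bud, with no step in Ad-IκBαΔN unstimulated. The scale may thus differ between groups, and a position relative to other regions is firmer than a distance from 0.

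With 1 value per group there is no test between groups. Regions were called higher or lower at a log2 difference of at least 1, that is 2-fold for signal + 1, a scale that understates changes of low signals. The counting and the motif search were tested on simulated data. Distances ran from region midpoints to GENCODE 44 protein-coding gene starts. Sequences came from hg38. The κB motif, a 10-base degenerate consensus, was searched on both strands. Named regions were, per comparison, the 5 highest and 5 lowest log2 differences among distal regions with a signal of at least 20 in either group. Also named were the 5 highest signals with Bud and with IL1B+Bud in Ad-GFP and the 5 farthest. The regions of listed genes and the run with most regions were named too. Genes with many regions, the runs drawn and further examples within them were chosen after their values were seen. A region is named by the protein-coding gene that holds it, or else by the nearest start. Not every region that this rule names is reported here. Members, lists and tests were chosen with earlier results of these data known. Values were computed in Python 3.11.15 (matplotlib 3.10.9, scipy 1.17.1, pandas 2.3.3, numpy 2.4.6). Alternatives were other scalings, a signal filter, other distance limits, a stricter GRE and the removal of near-identical copies.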

Additional observations from a re-analysis of the deposited data

Results flagged for a closer look

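At 11 distal regions the difference between IL1B+Bud and Bud was at least 2-fold in opposite directions with the 2 viruses. With 1 value per group these contrasts were not tested. In 6 regions IL1B+Bud was lower than Bud with Ad-GFP and higher with Ad-IκBαΔN. Their log2 differences with Ad-GFP and Ad-IκBαΔN were -1.39 and 1.21 at ETV3, -1.49 and 1.33 at RERG, and -1.13 and 1.05 at BMP4. At SH3BP4 they were -1.81 and 1.05, at PTPN1 -1.51 and 1.03, and at GJE1 -1.02 and 1.51. After signals were divided by their steps, all 6 kept both directions, with -2.21 to -3.21 for Ad-GFP and 0.44 to 0.95 for Ad-IκBαΔN. The other 5 had the opposite arrangement, with 1.13 and -1.09 at JAK1, 1.58 and -1.03 at RAD51B, 2.56 and -1.05 at HS6ST1, 1.29 and -1.08 at ZFAND3, and 1.70 and -1.03 at GLIS3. After division by the steps the Ad-GFP difference of these was -0.39 at JAK1, -0.0003 at RAD51B, 1.00 at HS6ST1, -0.23 at ZFAND3 and 0.12 at GLIS3, so JAK1, RAD51B and ZFAND3 no longer had opposite directions.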

How the results depend on the processing

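Counts of distal regions at least 2-fold higher and lower depend on the scale, and the cause was not tested except where fewer regions enter. Of 148 alternative values 72 kept to within 1.5 times the count or 1 spread and 76 did not. Budesonide against unstimulated gave, with Ad-GFP and then Ad-IκBαΔN, 782 higher and 935 lower, then 568 and 843, after re-centring to a common median. It gave 742 and 605, then 675 and 699, after quantile normalization, and 458 and 1210, then 304 and 1122, centred on the unchanged class. IL1B+Bud against Bud gave, in the same order of settings with Ad-GFP, 1087 lower, then 703 higher and 920 lower, then 515 lower. With Ad-IκBαΔN it gave 170 higher and 54 lower, 27 higher, and 50 lower. Ad-IκBαΔN against Ad-GFP under IL1B+Bud gave 822 higher and 693 lower, 803 and 695, and 451 higher. Under Bud, quantile normalization gave 1 higher and 4 lower with a gap between distal and other medians of -0.0061. Division by the steps gave 852 higher and 1441 lower for IL1B with Ad-GFP, 29 and 354 with Ad-IκBαΔN, and 827 and 642 between viruses under IL1B+Bud.

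Settings with fewer regions gave smaller counts by construction. Without the 25% of regions of lowest signal, lower counts were 82 and 10 for budesonide, IL1B gave 818 and 131 higher with a gap of -0.12 in Ad-GFP, and the viruses differed at 32 higher and 0 lower under Bud and 862 lower under IL1B+Bud. The 1474 regions beyond 200 kb gave 857 higher and 115 lower with a gap of -0.0043 for budesonide with Ad-GFP, and 855, 30 and -0.072 with Ad-IκBαΔN. For IL1B they gave 709, 79 and -0.057, then 142, 14 and -0.025. Between viruses they gave 55, 0 and 0.0031 under Bud and 72, 668 and 0.0021 under IL1B+Bud. The 455 regions beyond 100 kb of any gene start gave 276 and 28, then 277 and 5, for budesonide. For IL1B they gave 196 and 25 with a gap of -0.36, then 34 and 6. Between viruses they gave 19 and 0 under Bud, and 27 and 185 with a gap of 0.20 under IL1B+Bud. With at most 1 mismatch, 4.11% of distal and 3.14% of other regions held a GRE. Leaving out near-identical copies, an alternative chosen after seeing the data, moved none of the counts by 1.5 times.

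No paired analysis was possible because the table holds 1 value per group, and for the same reason leaving out a replicate was not run. Depth is unknown, so no value has a counting error.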
